A study of Mus musculus with 24 samples.

Results

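Cre against GFP in wild-type (WT) mouse embryonic fibroblasts was described from 6 of the 24 RNA-seq libraries of the series, the 3 titled WT Cre and the 3 titled WT GFP. The libraries were chosen by their titles, not by any measured value. The cells are connective tissue cells from E13.5 embryos, and all 6 libraries are of cells with no named gene alteration. The other 3 genotypes are named Vhl, Rassf1a and Vhl/Rassf1a for the genes altered in them, each with 3 Cre libraries, given as knockout, and 3 GFP libraries, given as control. The WT Cre libraries carry the same knockout entry, although no target is named for them. The series' design note describes single kidney tubule cells instead, and the labels of the samples were taken as given. The labels do not say how Cre or GFP was brought into the cells, at what amount, for how long, or how many embryos and cultures were used, so a p-value here rests on the spread among these libraries alone, and that spread may be technical. No library of cells that received neither protein was analysed here, so a lower level with Cre and a higher level with GFP cannot be told apart.

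Cre is a recombinase of a bacteriophage that joins DNA at short sites called loxP, and it is used to delete genes placed between such sites. GFP, a fluorescent protein with no action on DNA, is the usual stand-in for the delivery and for the expression of a foreign protein. Cre is known to be able to cut mammalian DNA at sequences that resemble loxP and, at high levels, to slow growth of cultured cells, which is why cells without a target are included in such designs.

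The WT libraries held 34.7 to 38.8 M counts with Cre and 29.9 to 43.3 M counts with GFP (M for 1000000 counts), over 21354 to 22451 genes with a count. No replicate pair agreed within sampling noise (chi-square over degrees of freedom 3.50 to 9.89). Relative to their own group, WT Cre 2 and WT GFP 3 deviated with the GC content of genes at r = 0.642 and 0.634 across 10411 genes, and the other 4 libraries at -0.172 to -0.577. Genes are not independent replicates in these correlations. The Cre effect itself correlated with GC content at -0.01 over these genes. The labels give no batch. The fibroblast markers summed to 43824 to 46829 CPM in WT Cre and 41373 to 44161 CPM in WT GFP, where CPM is the count per 1000000 counts of the library. Among other cell types, marker sums reached 611 CPM for neural cells, 395 CPM for cartilage, 269 CPM for skeletal muscle, 94.0 CPM for epithelium, 6.19 CPM for macrophages and 0.208 CPM for erythroid cells. Vhl was at 22.7, 24.0 and 24.4 CPM in WT Cre, against 22.5, 24.4 and 23.1 CPM in WT GFP, and Rassf1, counted over all its transcript forms, was at 30.3, 33.4 and 32.3 CPM in WT Cre, against 32.3, 29.9 and 37.2 CPM in WT GFP. Neither passed the test (adjusted p = 0.998 and 0.996, edgeR), and the groups overlapped for both.

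Few genes differed between WT Cre and WT GFP, and most of the differences were small. Of 16573 genes tested, 209 (1.26%) passed an adjusted p of 0.05 in edgeR's quasi-likelihood test, 138 higher in WT Cre (0.833%) and 71 lower (0.428%). The genes that rose had a median log2 fold change of 0.38 and included 22 genes of matrix proteins, matrix proteases and protease inhibitors, such as Dcn, Postn and Timp3. The genes that fell had a median size of 0.56 on that scale and included Sucnr1, Eml5 and Mkrn2. At least 2-fold differences were found for 8 genes that rose (0.0483%) and 20 that fell (0.121%). Sizes under 0.5 made up 94 of the 138 rises and 31 of the 71 falls. All 209 had CPM values that did not overlap between the 3 Cre and 3 GFP libraries, as had 15.0% of all genes tested, 8.74% with higher Cre values. Of the 209 genes, 204 were protein coding. Leaving out 1 library reduced the count to 87 without WT GFP 1, 103 without WT Cre 3, 108 without WT GFP 3 and 124 without WT Cre 2, and 73 of the 209 genes were called with any 1 of the 6 left out. An offset for GC content raised the count to 538, with 247 higher (45.9%) and 291 lower, against 66.0% higher among the 209, and 206 of the 209 stayed called. Leaving Rassf1a GFP 1 and Vhl/Rassf1a GFP 2, which stood apart in their link to GC content, out of the shared estimate of spread raised it to 466 (265 higher, 201 lower), with 208 of the 209 among them.

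**Figure D1:**
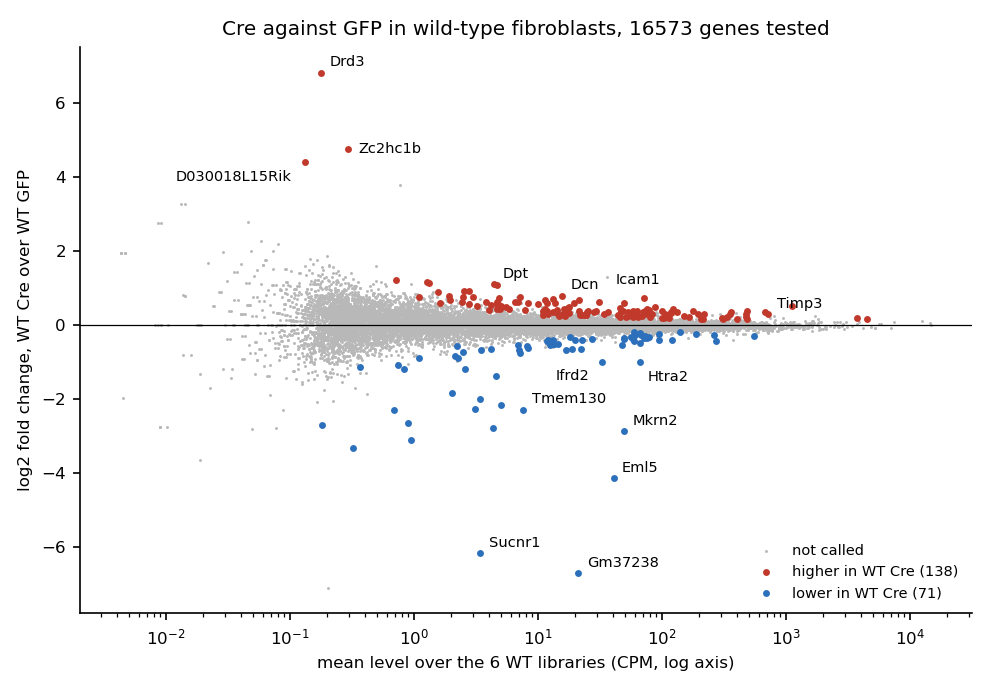
Each point is 1 of 16573 genes, with its mean level over the 6 WT libraries (CPM, log axis) on the x axis and the log2 fold change of WT Cre over WT GFP on the y axis. The 138 red and 71 blue points passed the test, most of them lie close to 0, and a few genes such as Sucnr1, Eml5, Mkrn2, Drd3 and Zc2hc1b stand far away.

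Several of the largest differences were near losses of transcripts in WT Cre. Sucnr1, which encodes the receptor for succinate on the cell surface, lies at chr3:60081869-60087566 on the plus strand (GRCm38, GENCODE M21). It was at 0.0286, 0.130 and 0.111 CPM in WT Cre, against 6.61, 6.48 and 7.16 CPM in WT GFP. The raw counts behind these levels were 1, 5 and 4 with Cre and 287, 240 and 213 with GFP. The log2 fold change was -6.16 ± 0.40 SE (adjusted p = 1.37e-09, edgeR). Eml5, a microtubule-associated protein of the EMAP family, lies at chr12:98786805-98901484 on the minus strand. It was at 4.34, 3.69 and 5.13 CPM in WT Cre, against 68.8, 65.8 and 95.9 CPM in WT GFP (log2 fold change -4.13 ± 0.15 SE, adjusted p = 2.98e-14, edgeR). In both genes every Cre library was more than 10-fold below every GFP library. Mkrn2, a ring-finger ubiquitin ligase of the makorin family at chr6:115601902-115622624 on the plus strand, was at 11.7, 12.3 and 12.1 CPM in WT Cre, against 88.9, 85.1 and 87.6 CPM in WT GFP (log2 fold change -2.86 ± 0.12 SE, adjusted p = 2.29e-13, edgeR). The 3 Cre values spanned less than 1 CPM, so Mkrn2 was reduced to a nearly constant remainder rather than lost. Gm37238, a clone-named transcript at chr13:48542644-48545033 chosen after its values were seen, had a lower ratio than Sucnr1, Eml5 and Mkrn2. It was at 0.400, 0.442 and 0.362 CPM in WT Cre, against 42.5, 32.3 and 50.9 CPM in WT GFP (log2 fold change -6.69 ± 0.21 SE, adjusted p = 2.3e-15, edgeR). It lies inside the noncoding gene 6720427I07Rik on the same strand, which was at 1.86, 1.20 and 2.56 CPM in WT Cre, against 1.01, 1.92 and 1.58 CPM in WT GFP, and did not pass the test.

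Weakly expressed or partly reduced genes followed. Il9r, a cytokine receptor, was at 0.0286, 0.078 and 0.0557 CPM in WT Cre, against 0.484, 0.567 and 0.706 CPM in WT GFP (log2 fold change -3.32, adjusted p = 0.00244, edgeR). Spata45 was at 0.257, 0.156 and 0.167 CPM in WT Cre, against 1.5, 1.24 and 2.39 CPM in WT GFP (log2 fold change -3.11, adjusted p = 6.71e-06, edgeR). Ifrd2, which binds ribosomes and limits translation, was at 20.9, 23.6 and 21.3 CPM in WT Cre, against 45.8, 41.9 and 42.4 CPM in WT GFP (log2 fold change -0.98 ± 0.14 SE, adjusted p = 0.000396, edgeR). Every Cre library was below every GFP library. Pclo, a scaffold of the presynaptic zone, was at 0.457, 0.754 and 0.307 CPM in WT Cre, against 1.04, 1.21 and 1.21 CPM in WT GFP (log2 fold change -1.16, adjusted p = 0.0211, edgeR), and it was not called with only the 6 WT libraries or without any 1 library other than WT Cre 2 (adjusted p 0.0546 to 0.177). Smaller falls were seen in Adck5 (-0.63), a kinase-like mitochondrial protein, in Cacna2d3 (-0.57), an auxiliary subunit of calcium channels, and in Cdh13 (-0.25), a cadherin without a cytoplasmic tail. Cacna2d3 was not called without WT Cre 2, WT Cre 3 or WT GFP 1 (adjusted p 0.0906 to 0.115), Adck5 without WT GFP 3 (0.0604) and Cdh13 without WT GFP 1 (0.056).

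Relatives of these genes were looked at beside them. In a list of the Eml, makorin, Htra and Ifrd families, made with the falls of some members known, 4 of 15 tested members were lower, Eml5, Mkrn2, Htra2 and Ifrd2. The other 5 Eml genes lay between -0.15 and 0.00, the other 2 makorin genes were at 0.07 (Mkrn1) and -0.12 (Mkrn3), and Ifrd1 was at -0.02 on the log2 scale. Htra1, Htra3 and Htra4 were at 0.13, 0.50 and 1.32. None of these 11 passed the test, and 1 relative was called higher with GC offsets.

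A few transcripts were seen almost only with Cre. Drd3, a dopamine receptor gene at chr16:43754026-43822932, had 18, 15 and 6 raw counts in the WT Cre libraries and 0 in each WT GFP library. With 3 counts as the floor over the WT GFP group, Drd3 was at least 13.1-fold higher with Cre (adjusted p = 0.00145, edgeR). Zc2hc1b, a zinc finger gene at chr10:13149540-13178023, had 15, 21 and 27 counts with Cre and 2, 0 and 0 with GFP. Its ratio was 31.7, with a 95% counting interval from 8.42 to 267 (adjusted p = 0.000271, edgeR). The noncoding clone D030018L15Rik, chosen after its values were seen, had 9, 10 and 9 counts with Cre and 0, 1 and 0 with GFP, a ratio of 28.2 with an interval from 4.66 to 1152. The interval covers counting error only. All these levels are under 1 CPM, so they are weak signals that were present in each Cre library.

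The starts of these genes differ in their DNA. Promoters from RefSeq (GRCm38.p6, 250 bases before the start and 50 after it) are shown for Eml5 and Sucnr1, which were nearly lost, and for Drd3, which was seen only with Cre, with CG pairs in capitals, the pairs at which DNA is methylated in mammals. They run 5′ to 3′ on the strand of the gene, at chr12:98901435-98901734 (minus), chr3:60081619-60081918 (plus) and chr16:43761971-43762270 (plus).
Eml5: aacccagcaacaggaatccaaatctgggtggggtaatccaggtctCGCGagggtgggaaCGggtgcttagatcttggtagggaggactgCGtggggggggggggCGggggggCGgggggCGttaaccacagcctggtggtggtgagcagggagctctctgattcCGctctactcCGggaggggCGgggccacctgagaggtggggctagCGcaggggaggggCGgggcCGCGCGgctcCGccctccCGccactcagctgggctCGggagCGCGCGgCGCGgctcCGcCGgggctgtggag
Sucnr1: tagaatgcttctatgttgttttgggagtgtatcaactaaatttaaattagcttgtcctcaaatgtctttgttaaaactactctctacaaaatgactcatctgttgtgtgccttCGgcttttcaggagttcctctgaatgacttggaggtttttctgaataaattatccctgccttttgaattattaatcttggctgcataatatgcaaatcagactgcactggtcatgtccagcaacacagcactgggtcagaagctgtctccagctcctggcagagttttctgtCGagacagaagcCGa
Drd3: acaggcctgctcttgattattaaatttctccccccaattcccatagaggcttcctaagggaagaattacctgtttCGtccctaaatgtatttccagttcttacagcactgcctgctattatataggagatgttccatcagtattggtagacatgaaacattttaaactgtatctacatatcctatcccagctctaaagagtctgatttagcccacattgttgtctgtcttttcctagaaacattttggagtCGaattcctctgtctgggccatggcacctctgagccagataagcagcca
Eml5 starts in a stretch with 25 CG pairs and 71.7% G and C. Sucnr1 and Drd3 start with 3 and 2 such pairs and 40.7% and 42.0% G and C. The median over 27018 RefSeq promoters was 7 CG pairs. Among called genes with a promoter entry it was 16 for the 98 that rose and 11 for the 51 that fell. The 27018 promoters are not limited to genes tested here, and no median over tested genes was taken. Whether called genes differ from other tested genes in CG pairs was thus not tested. The RefSeq start of Drd3 lies inside the GENCODE gene. A start poor in CG pairs was thus found at a gene that fell and at one that rose, and a start rich in them at another that fell. The counts are a description of the sequences.

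Genes around the strongly changed ones were counted beside the 1.26% called of all genes tested. Zc3h14, on the opposite strand and overlapping the end of Eml5, was at 90.0, 84.4 and 85.2 CPM in WT Cre, against 84.5, 82.9 and 83.7 CPM in WT GFP. It did not pass (adjusted p = 0.925, edgeR), and since the strand setting of the counting is not given, reads in the overlap cannot be assigned with certainty. Within 1 Mb of Eml5, 0 of 9 tested genes were called by edgeR, and 0 of 8 near Sucnr1, 0 of 20 near Gm37238, 0 of 14 near Drd3 and 0 of 11 near Zc2hc1b. Of these 62 genes 7 had an unadjusted p under 0.05, and DESeq2 called 0. Near Mkrn2 1 of 21 was called, Alox5, which makes leukotrienes. It lies in the window only, was named for its place, and was at 4.23, 4.92 and 4.82 CPM in WT Cre, against 3.18, 2.64 and 3.13 CPM in WT GFP. Around Vhl 0 of 28 genes were called by edgeR or DESeq2, none at an unadjusted p under 0.05, and around Rassf1 1 of 64, which was Ifrd2.

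Another 8 genes fell in WT and in Rassf1a cells and were not called in Vhl cells, with a called difference between the WT and Vhl effects. Tmem130, a transmembrane protein gene, was at 3.08, 2.5 and 2.26 CPM in WT Cre, against 13.2, 12.9 and 11.7 CPM in WT GFP (log2 fold change -2.27 ± 0.20 SE, adjusted p = 2.37e-07, edgeR). Kcnk1, a background potassium channel, was at 1.48, 2.08 and 1.95 CPM in WT Cre, against 8.64, 7.15 and 8.67 CPM in WT GFP (log2 fold change -2.14 ± 0.17 SE, adjusted p = 4.41e-08, edgeR). Zan, which encodes a sperm protein that binds the egg coat, was at 1.6, 1.25 and 1.20 CPM in WT Cre, against 5.30, 4.21 and 6.69 CPM in WT GFP (log2 fold change -1.99 ± 0.17 SE, adjusted p = 1.21e-07, edgeR). Bcas1, known from myelinating oligodendrocytes, and the olfactory receptor pseudogene Olfr1060-ps1 had log2 fold changes of -2.27 and -2.77. Htra2, a serine protease of the mitochondrial intermembrane space, was at 40.7, 45.9 and 45.9 CPM in WT Cre, against 87.5, 86.7 and 89.8 CPM in WT GFP (log2 fold change -0.99 ± 0.11 SE, adjusted p = 6.46e-06, edgeR). Cre and GFP values did not overlap in these genes. The other 2 of the 8 were Radil and Kcnk3. In Rassf1a cells the log2 fold changes were -2.71 for Tmem130, -2.13 for Kcnk1 and -1.85 for Zan, and Htra2 was at 42.9, 42.0 and 40.4 CPM in Rassf1a Cre and 95.1, 80.8 and 75.4 CPM in Rassf1a GFP, all 4 past the threshold. In Vhl cells the log2 fold changes were 0.10 for Tmem130, 0.30 for Kcnk1, 0.20 for Zan and -0.05 for Htra2, none of them past it. In Vhl/Rassf1a cells the log2 fold changes were -0.88 for Tmem130, -0.90 for Bcas1, -0.84 for Olfr1060-ps1, -0.44 for Kcnk1 and -0.34 for Zan. Each of these falls was smaller than the fall in WT, with a called difference. For Htra2, Radil and Kcnk3 the difference between the WT and Vhl/Rassf1a effects was not called. The WT effect minus the Vhl effect was -2.38 ± 0.27 SE for Tmem130 and -0.94 ± 0.15 SE for Htra2 on the log2 scale, given as a description since this difference chose the 8 genes. Tmem130 was at 6.75, 7.02 and 7.57 CPM in Vhl Cre and 6.74, 7.55 and 5.58 CPM in Vhl GFP, so all Vhl values lay between the WT Cre and the WT GFP values. Htra2 lay between them likewise, at 57.4, 58.6 and 63.6 CPM in Vhl Cre and 61.6, 67.6 and 57.2 CPM in Vhl GFP.

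**Figure D2:**
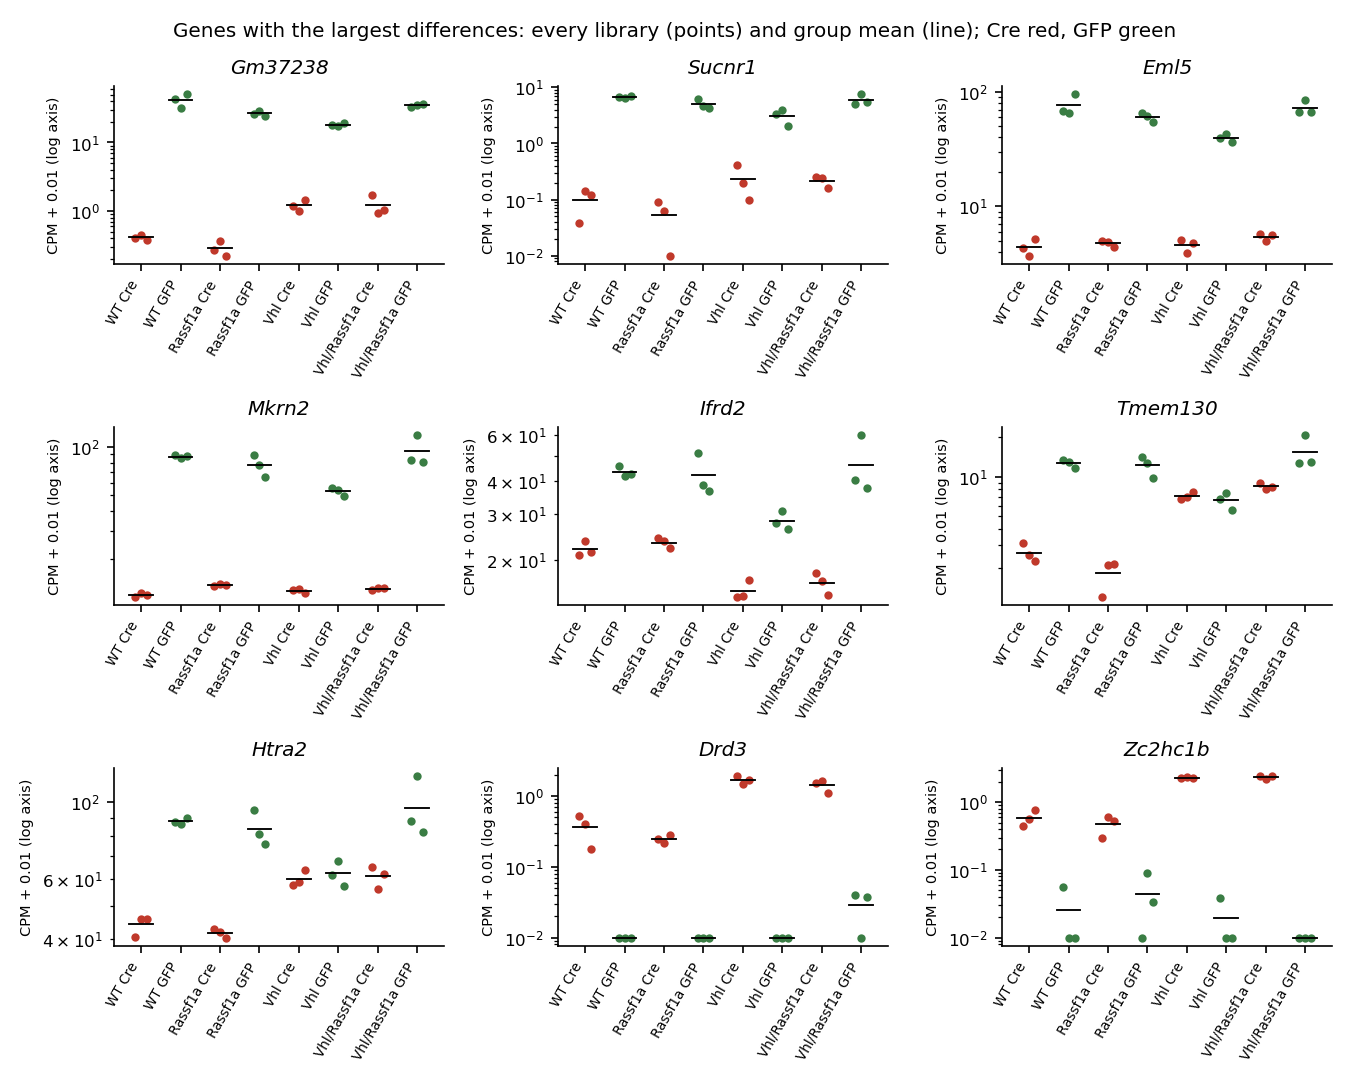
Levels of 9 genes (CPM + 0.01, log axis) in all 24 libraries, with Cre groups in red left of their GFP groups in green, points for libraries and a line for the group mean. Sucnr1, Eml5 and Mkrn2 are low in every Cre group. Tmem130 and Htra2 are low with Cre in WT and Rassf1a and at like levels with Cre and GFP in Vhl. In Vhl/Rassf1a the log2 fold change of Tmem130 was -0.88, and the effect on Htra2 had no called difference from that in WT. Drd3 and Zc2hc1b are higher in each Cre group, with GFP libraries at or near 0.

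Several matrix genes rose in WT Cre. Lists of genes by function were described by their counts of calls and their median, beside 0.833% of all genes higher, 0.428% lower and a median of 0.00 over all genes tested. Of 14 small leucine-rich proteoglycans and collagen organisers 2 rose and none fell (14.3%, median log2 fold change 0.19). Decorin (Dcn), which binds collagen fibrils, was at 19.1, 18.8 and 21.8 CPM in WT Cre, against 10.3, 13.1 and 10.8 CPM in WT GFP (log2 fold change 0.80 ± 0.13 SE, adjusted p = 0.00115, edgeR). Dermatopontin (Dpt), which speeds fibril assembly, was at 5.40, 6.06 and 6.80 CPM in WT Cre, against 2.58, 3.67 and 2.08 CPM in WT GFP (log2 fold change 1.12 ± 0.17 SE, adjusted p = 0.000928, edgeR). Both were higher in each Cre library than in any GFP library. Of 42 collagens 4 rose (9.52%, median 0.16), Col24a1 at 0.69, Col8a2 at 0.64, Col14a1 at 0.62 and Col11a1 at 0.17 on the log2 scale. In all, 36 of the 42 were above 0. Col24a1 was called in all 13 alternative settings, while each of the other 3 was lost without any 1 of 3 libraries (WT Cre 3, WT GFP 1 or WT GFP 3 for Col14a1, WT Cre 2, WT GFP 1 or WT GFP 3 for Col8a2, and WT Cre 1, WT Cre 2 or WT GFP 3 for Col11a1, adjusted p 0.0507 to 0.125). Col11a1 was called in 8 of the 13 settings. The abundant collagen Col3a1 was at 1688, 1917 and 1940.1 CPM in WT Cre, against 1569.6, 1605 and 1466 CPM in WT GFP and did not pass (adjusted p = 0.0898, edgeR).

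Of 25 matricellular and adhesive glycoproteins 6 rose (24.0%, median 0.11). Periostin (Postn), which links collagen and tenascin, was at 1273, 1269 and 1376 CPM in WT Cre, against 901, 1044 and 779.8 CPM in WT GFP (log2 fold change 0.52 ± 0.10 SE, adjusted p = 0.00932, edgeR). The groups did not overlap, and the adjusted p of Postn was 0.0681 without WT Cre 3, 0.0586 without WT GFP 1 and 0.0933 without WT GFP 3. The other 5 were the laminin chains Lama4 (0.44) and Lama2 (0.29), thrombospondin Thbs2 (0.35), tenascin Tnc (0.21) and Sparc (0.16). Of 23 elastic fibre genes Mfap4 (0.68), a microfibril protein, and Loxl2 (0.39), which cross-links collagen and elastin, rose. Genes outside the lists, picked with their values in view, moved in both directions. Lrrc15, a surface protein of matrix-making fibroblasts, rose by 0.74, lubricin (Prg4), the lubricant of joints, by 0.64, Pamr1 by 0.76, Fndc1 by 0.60 and the metalloprotease Adam33 by 0.61, all on the log2 scale. Olfml2b, a secreted olfactomedin-like protein gene, fell (-0.41). Fndc1 and Lrrc15 were not called without WT GFP 1 (adjusted p 0.0642 and 0.0505). The 14 fibroblast markers had a median of 0.24, and 11 of them had higher Cre values without overlap, as had 8.74% of all genes tested. Of these markers Dcn and Postn, which the matrix lists also hold, were called. The marker list also holds the matrix genes Col1a1, Col1a2, Col3a1, Col6a1, Fn1 and Lum, so its shift is not separate from the matrix result. The medians of the 4 matrix lists stayed above 0 in all 13 alternative settings. Over these settings 1 to 7 collagens and 3 to 8 matricellular genes were called higher, and with GC offsets 1 collagen, 1 elastic fibre gene and 1 matricellular gene were called lower. Whether more fibroblasts or more RNA per fibroblast lay behind these rises cannot be told apart in bulk libraries, and the part of the marker shift in the matrix result was not tested.

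**Figure D3:**
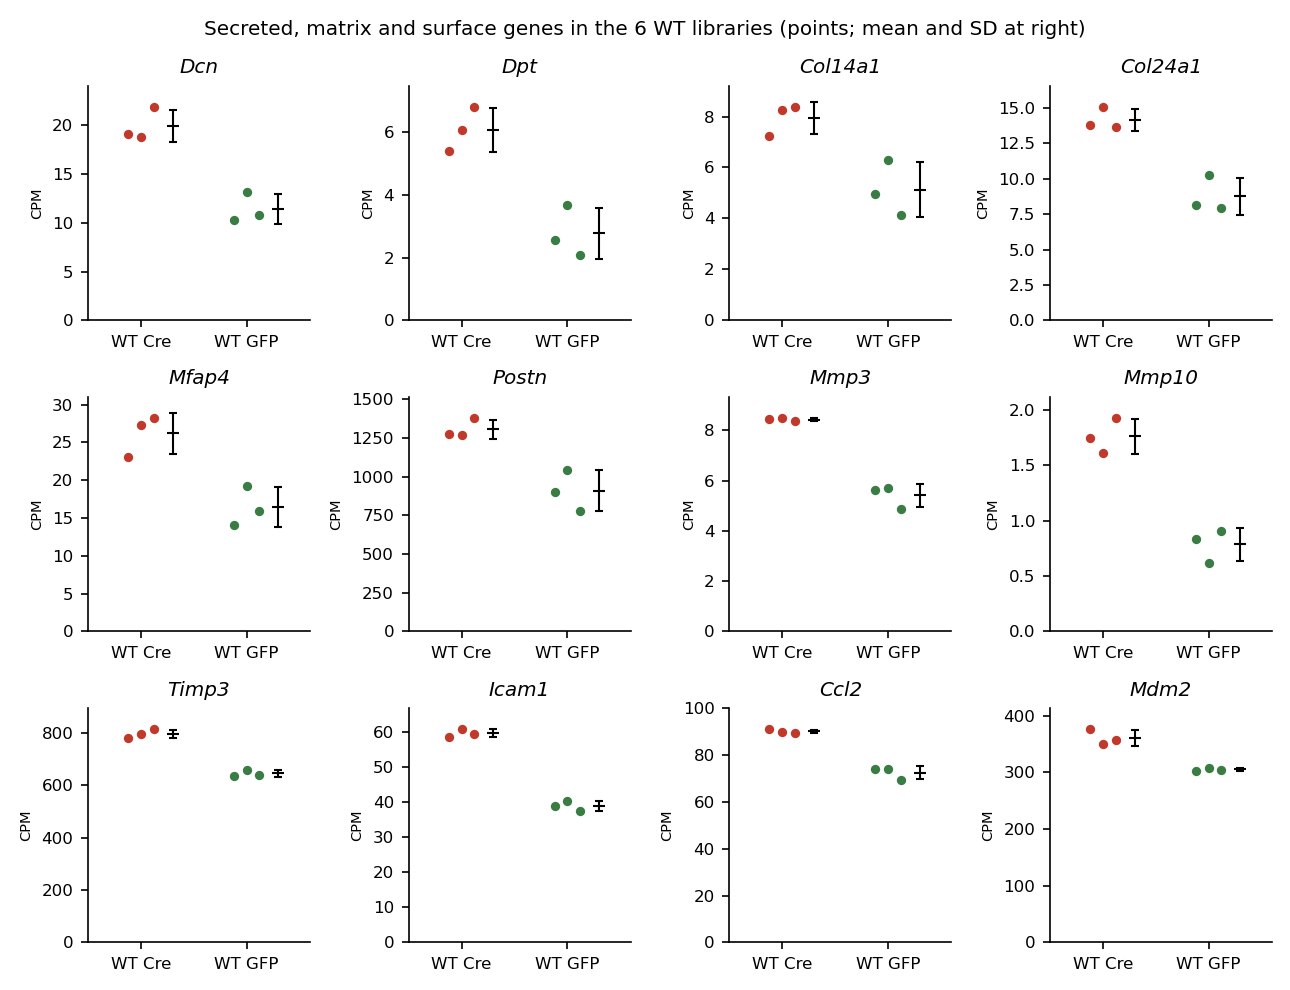
Levels (CPM, axes from 0) of 12 matrix, secreted, surface and p53-regulated genes in the 3 WT Cre libraries (red, left) and the 3 WT GFP libraries (green, right), with mean and SD beside the points. In every panel all Cre values lie above all GFP values, by a wide gap in Icam1 (58.6 to 60.7 against 37.5 to 40.2 CPM) and a narrow one in Col14a1 (7.22 to 8.36 against 4.13 to 6.29 CPM).

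Both enzymes that cut the matrix and inhibitors of such enzymes rose. Of 29 matrix proteases and Timp inhibitors 5 rose (17.2%, median 0.14). Stromelysin Mmp3 was at 8.45, 8.48 and 8.36 CPM in WT Cre, against 5.65, 5.72 and 4.87 CPM in WT GFP (log2 fold change 0.63 ± 0.13 SE, adjusted p = 0.00884, edgeR). Its relative Mmp10 was at 1.74, 1.61 and 1.92 CPM in WT Cre, against 0.830, 0.621 and 0.908 CPM in WT GFP (log2 fold change 1.17, adjusted p = 0.0166, edgeR). Neither gene had overlapping groups, and Mmp3 was lost without WT GFP 3 (adjusted p 0.0684) and Mmp10 without WT Cre 3, WT GFP 1 or WT GFP 2 (0.0782 to 0.0956). Adamts9, which cleaves the proteoglycan versican, rose by 0.37, and the matrix-bound inhibitor Timp3 by 0.30, at 782, 795 and 814 CPM in WT Cre, against 637, 659.7 and 639.8 CPM in WT GFP. Timp1 was the fifth (0.18). Of 27 secreted protease inhibitors 3 rose (11.1%, median 0.25), the serpins Serpina3n (1.13), Serpine2 (0.37) and Serpinf1 (0.31). Of 20 insulin-like growth factor genes 4 rose, the binding proteins Igfbp5 (0.38) and Igfbp3 (0.36) and the proteases that cleave such proteins, Pappa2 (1.08) and Pappa (0.36). Among 29 Wnt genes the antagonist Sfrp1 rose (0.33) and Rspo2, which strengthens Wnt signals, fell (-0.38). Pappa2, Serpina3n, Serpine2 and Rspo2 were called in all 13 alternative settings. Igfbp3 and Igfbp5 were lost without any 1 library other than WT GFP 2 (adjusted p 0.0554 to 0.186), Pappa without WT Cre 3, WT GFP 1 or WT GFP 3, Serpinf1 without WT Cre 2 or WT Cre 3, and Sfrp1 without any 1 of the 6. Sfrp1 was called in 5 of the 13 settings.

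Icam1 had the smallest adjusted p among the genes that rose. It encodes a surface protein that binds leukocyte integrins and that NF-kB is known to induce. It was at 58.6, 60.7 and 59.5 CPM in WT Cre, against 39.0, 40.2 and 37.5 CPM in WT GFP (log2 fold change 0.61 ± 0.05 SE, adjusted p = 1.84e-08, edgeR), and the libraries of each group lay close together. The chemokine Ccl2, which draws monocytes, was at 91.0, 89.8 and 89.5 CPM in WT Cre, against 74.2, 73.9 and 69.5 CPM in WT GFP (log2 fold change 0.31 ± 0.06 SE, adjusted p = 0.00451, edgeR). With the interleukin receptor antagonist Il1rn (0.48), it was 1 of 2 calls among 32 chemokines and cytokines (median 0.12). Il1rn was lost without any 1 library other than WT GFP 2 (adjusted p 0.0641 to 0.276) and was called in 7 of the 13 alternative settings. Ptx3, a secreted pattern-recognition protein, was the only call among 19 complement and acute phase genes (0.30), and it was lost without WT GFP 3 (adjusted p 0.0696). The Icam1 promoter is shown at chr9:21015690-21015989 (plus strand, RefSeq, GRCm38.p6), with an NF-kB-type site, searched as GGAANTTCC on both strands, and a TATA box, searched as TATAAA on both strands, in capitals.
Icam1: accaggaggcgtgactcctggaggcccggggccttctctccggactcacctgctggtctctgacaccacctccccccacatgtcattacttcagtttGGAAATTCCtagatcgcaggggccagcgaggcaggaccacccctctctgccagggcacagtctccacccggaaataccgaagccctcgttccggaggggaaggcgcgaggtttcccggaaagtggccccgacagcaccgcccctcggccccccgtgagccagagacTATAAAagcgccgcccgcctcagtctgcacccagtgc
These letters were found in 0.973% and 14.2% of the 27018 promoters. Among called genes with a promoter entry, the first was in 1 of 98 that rose, which was Icam1, and in 0 of 51 that fell. These are letters found in a window, not sites shown to be bound.

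Few genes of the DNA damage response and none of cell division were called. Of 40 p53 targets 2 rose (5.00%, against 0.833% of all genes tested, median 0.07). In all, 30 of the 40 lay above 0, and 7 had an unadjusted p under 0.05 (edgeR). Of the 40, 9 had higher Cre values without overlap, as had 8.74% of all genes tested. With GC offsets 4 p53 targets were called higher. Mdm2, the ubiquitin ligase that limits p53, was at 376, 349 and 356 CPM in WT Cre, against 302, 308 and 304 CPM in WT GFP (log2 fold change 0.24 ± 0.05 SE, adjusted p = 0.00618, edgeR). The kinase gene Plk2 was at 226, 224 and 227 CPM in WT Cre, against 203, 203 and 194 CPM in WT GFP (log2 fold change 0.18, adjusted p = 0.016, edgeR), and was lost without any 1 of WT Cre 1, WT Cre 3, WT GFP 1 and WT GFP 3 (adjusted p 0.0553 to 0.131). Mdm2 was called in all 13 alternative settings and Plk2 in 7 of them. Cdkn1a, the p53 target that arrests the cycle, was at 552, 591 and 572 CPM in WT Cre, against 539, 536 and 572 CPM in WT GFP. It overlapped between the groups and did not pass (log2 fold change 0.06 ± 0.06 SE, adjusted p = 0.933, edgeR). By edgeR no gene passed among 67 of DNA damage signalling and repair (median 0.00), 49 of DNA replication (-0.01), 53 of mitosis and spindle (0.02) and 15 CDK inhibitors, D cyclins and pocket proteins (0.00). Of these 184 genes 7 had an unadjusted p under 0.05 and 0 were called by DESeq2. With GC offsets 1 gene of DNA damage signalling and repair was called lower. The 184 genes lay between -0.32 and 0.22 on the log2 scale.

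Nor by edgeR did any of 53 interferon-stimulated genes pass (median -0.09, from -0.83 to 0.63), or any of 29 nucleic acid sensors and signalling factors (-0.04) or 23 genes of antigen presentation on MHC class I (0.05). Among interferon-stimulated genes, Ifit3 averaged 10.2 ± 0.740 CPM in WT Cre and 14.7 ± 5.15 CPM in WT GFP (SD, n = 3 each), a difference that did not pass (adjusted p = 0.651, edgeR). Of the genes in these 3 lists 5 of 101 had an unadjusted p under 0.05, and DESeq2 called 0. The median of the interferon-stimulated list was 0.02 without WT GFP 2, so its sign rests on that library, and it was -0.22 without WT GFP 3 and -0.17 without WT Cre 2. Without a filter on low counts 3 of its genes were called lower and 1 higher. By edgeR no member passed among 24 YAP targets, 38 genes of the TGF-beta and BMP pathway, 35 immediate early genes, 29 of the unfolded protein response, 24 heat shock proteins, 36 of the amino acid response, 30 of cholesterol synthesis, 51 nuclear and 15 mitochondrial genes of the respiratory chain and mitochondrial genome, 53 ribosomal proteins, 32 histones or 9 sex-linked genes. Of these 372 genes 32 had an unadjusted p under 0.05 (edgeR), among them 10 of the 38 TGF-beta and BMP genes and 6 of the 24 YAP targets. DESeq2 called 2, both of the TGF-beta and BMP pathway. In that pathway 14 of the 38 genes had groups without overlap (5 higher, 9 lower), as had 15.0% of all genes tested. With GC offsets 4 YAP targets, 3 genes of the TGF-beta and BMP pathway, 3 immediate early genes, 2 heat shock genes and 1 gene each of the unfolded protein and amino acid responses were called lower, and 1 gene each of the TGF-beta and BMP pathway and the amino acid response higher. The medians of these lists lay between -0.08 and 0.08. Of 47 hypoxia-responsive genes Car12, a carbonic anhydrase, and Pfkfb3, a regulator of glycolysis, rose, by 0.27 and 0.22 on the log2 scale, and each was lost without any 1 of 4 libraries (adjusted p 0.104 to 0.292). Car12 was called in 5 and Pfkfb3 in 7 of the 13 alternative settings. Of 26 contractile genes Synpo2, an actin-binding protein, rose (0.29), while the list median was -0.05 and 21 of the 26 lay below 0. Synpo2 was lost without WT Cre 3, WT GFP 1 or WT GFP 3 (adjusted p 0.0554 to 0.0883) and was called in 9 of the 13 settings. With GC offsets 5 contractile genes were called lower and 1 higher. Htra2 was the only call among 37 apoptosis regulators, and Ifrd2 among 40 ribosome biogenesis genes. The glutathione transferase Gstm2 was the only call among 28 NRF2 targets (0.27), and it was lost without any 1 library other than WT GFP 2 (adjusted p 0.0722 to 0.207). It was called in 7 of the 13 settings.

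**Figure D4:**
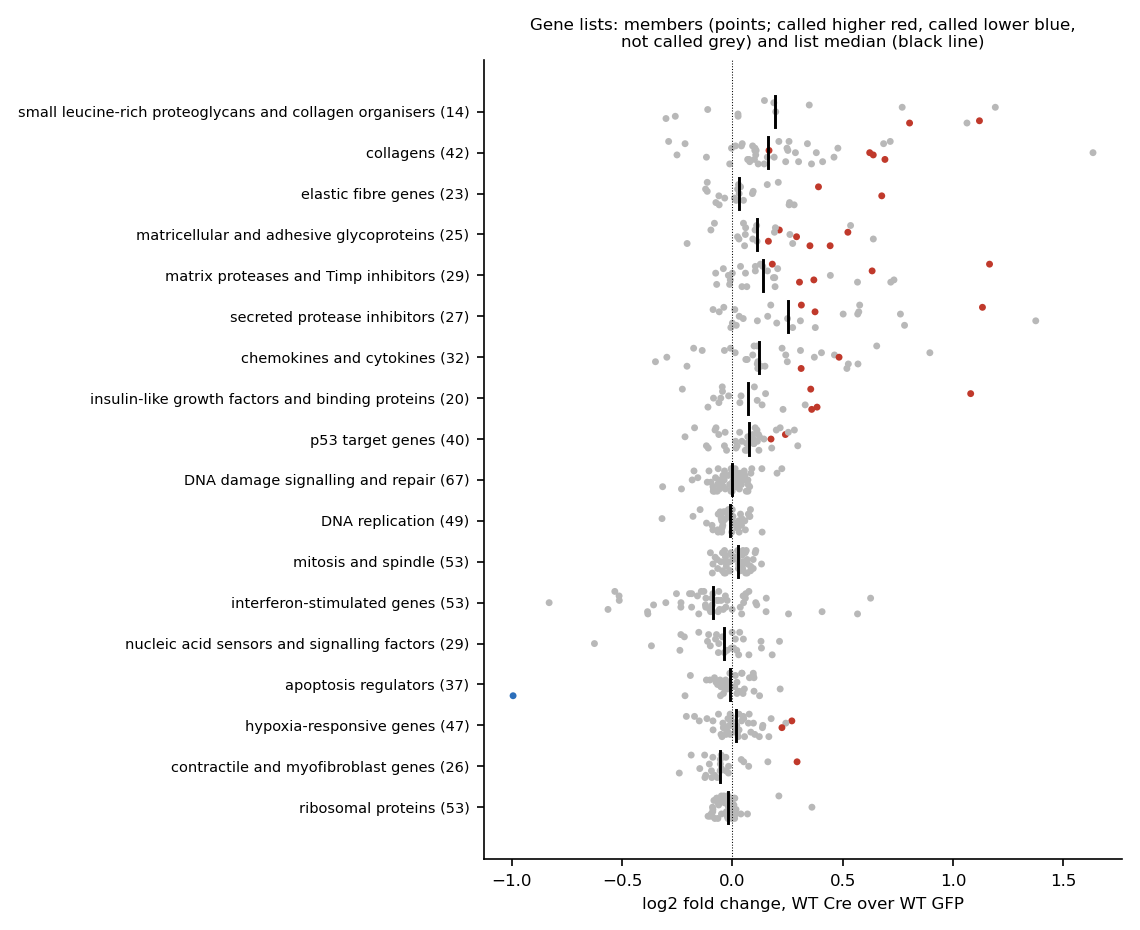
Log2 fold changes of WT Cre over WT GFP (x axis) for the members of 18 gene lists, with the number tested in parentheses, called genes in colour and the list median as a black line. The 6 matrix, protease and protease inhibitor lists at the top have medians from 0.03 to 0.25 and 22 calls, all higher in Cre. The DNA repair, replication and mitosis lists have medians from -0.01 to 0.02 and no call. The interferon-stimulated list has a median of -0.09 and no call.

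Of the markers of other cell types 1 was called. Their summed levels, for WT Cre and then WT GFP, were 582 to 611 and 555 to 602 CPM for neural cells, 317 to 350 and 312 to 395 CPM for cartilage, and 69.6 to 82.1 and 76.9 to 94.0 CPM for epithelium. Of 6 neural markers tested 4 lay above 0 (median 0.24). Ncam1, an adhesion molecule of neural and mesenchymal cells, rose by 0.24, and it was lost without WT Cre 3, WT GFP 1 or WT GFP 3 (adjusted p 0.0567 to 0.165). No marker of skeletal muscle, fat, cartilage, mesothelium, epithelium, endothelium or macrophages passed in edgeR, 4 of the 36 tested had an unadjusted p under 0.05, and DESeq2 called 1, a fat marker. Muscle genes outside the marker list fell, Myh1 (-0.75), a fast skeletal myosin heavy chain, and Nebl (-0.67), a relative of nebulin. Muscle markers summed to 199 to 239 CPM in WT Cre and 217 to 269 CPM in WT GFP, and their part in these falls was not tested. Apelin (Apln), a peptide ligand made by vessels, was at 41.5, 40.8 and 34.7 CPM in WT Cre, against 55.2, 52.3 and 61.7 CPM in WT GFP (log2 fold change -0.53 ± 0.09 SE, adjusted p = 0.00195, edgeR). The transcription factor genes Tfap2b (-0.53) and Tfap2a (-0.53) fell, as did Rab3b (-0.66), a vesicle GTPase, Radil (-0.64), an effector of the GTPase Rap, and the potassium channel Kcnk3 (-0.60). Tfap2a and Kcnk3 were lost without any 1 library other than WT GFP 2 (adjusted p 0.0641 to 0.286), while Tfap2b, Rab3b, Radil, Apln, Myh1 and Nebl were called in all 13 alternative settings.

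In Rassf1a cells Sucnr1, Eml5 and Mkrn2 fell and Icam1 rose, as in WT. There 65 genes were called (0.392%), of which 45 were among the 209 of WT and had the same direction. These 45 are 21.5% of the WT calls and 69.2% of the Rassf1a calls. Of the 209 genes 204 had the same sign in Rassf1a, against 59.4% of all genes tested, and none was called in the other direction. The 2 comparisons share no library. The difference between the WT and Rassf1a effects was called for 0 of the 209 genes by edgeR and for 0 of them by DESeq2. Among all genes tested it was called for 1 (0.00603%). An unadjusted p under 0.05 for this difference was found for 62 of the 209, against 544 of all 16573 genes tested (edgeR). In size the Rassf1a effect was the smaller one for 188 of the 209, which were chosen by their WT values. The gene with a called difference was Zmynd10, a cilia gene beside Rassf1 that was chosen after its values were seen. It was at 0.171, 0.338 and 0.112 CPM in WT Cre and 0.230, 0.647 and 0.235 CPM in WT GFP, and at 1.26, 0.949 and 1.39 CPM in Rassf1a Cre and 0.145, 0.106 and 0.142 CPM in Rassf1a GFP. The difference of the effects was -3.99 ± 0.55 SE on the log2 scale (adjusted p = 0.00494, edgeR), and it was not called without WT GFP 2.

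The Vhl and Vhl/Rassf1a comparisons called 36.1% and 29.7% of all genes. In Vhl cells 90 of the 209 were called in the same direction and 57 in the opposite one, and 55.5% had the same sign, against 52.8% of all genes tested. In Vhl/Rassf1a cells 137 were called in the same direction and 19 in the opposite one, and 81.8% had the same sign, against 56.3%. The difference from the WT effect was called for 138 of the 209 in Vhl (23.2% of all tested) and for 97 in Vhl/Rassf1a (14.8%). These differences contain the WT libraries by which the 209 were chosen. Apln went opposite ways, at 92.7, 97.8 and 94.7 CPM in Vhl Cre and 19.0, 22.7 and 25 CPM in Vhl GFP, and its WT effect minus its Vhl effect was -2.62 ± 0.13 SE, adjusted p = 6.07e-13, edgeR. Mmp3 rose in WT and fell in Vhl, where it was at 5.96, 5.36 and 5.61 CPM in Vhl Cre and 12.5, 12.6 and 14.8 CPM in Vhl GFP (difference 1.87 ± 0.17 SE, adjusted p = 3.4e-08, edgeR). Mfap4 did likewise, with log2 fold changes of 0.68 in WT and -0.85 in Vhl (difference 1.53 ± 0.15 SE, adjusted p = 6.32e-08, edgeR).

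**Figure D5:**
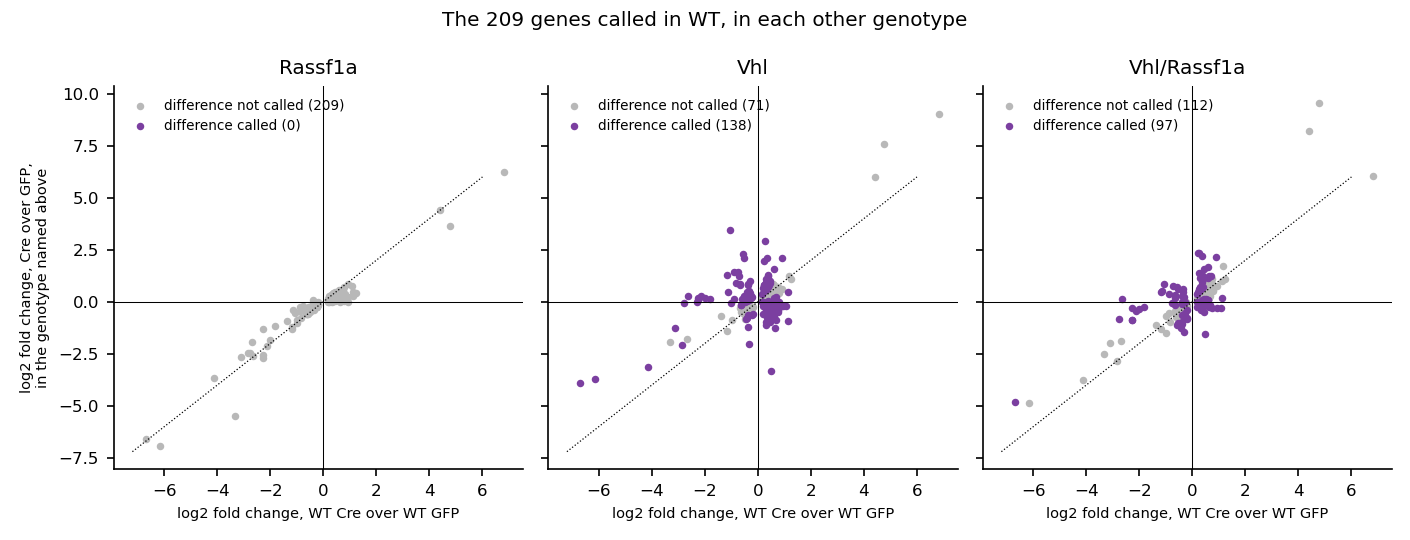
For the 209 genes called in WT, the log2 fold change of WT Cre over WT GFP (x axis) against that of Cre over GFP in Rassf1a, Vhl and Vhl/Rassf1a cells (y axis), with genes in purple where the difference of the 2 effects was called and the dotted line marking equal effects. In Rassf1a 204 of the 209 points have the same sign on both axes and no difference was called, and points spread around the line in Vhl (138 called) and Vhl/Rassf1a (97 called).

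Genes called in the same direction in all 4 genotypes numbered 29, with 17 higher and 12 lower in Cre. Those that fell were Sucnr1, Eml5, Mkrn2, Il9r, Spata45, Pclo, Ifrd2, Adck5, Cacna2d3, Cdh13 and the clones Gm37238 and Gm26507. Mkrn2 was at 13.6, 14.1 and 13.8 CPM in Rassf1a Cre and 89.4, 77.4 and 65.3 CPM in Rassf1a GFP. In Vhl cells it was at 13.0, 13.1 and 12.3 CPM with Cre and 55.8, 54.4 and 49.3 CPM with GFP, and in Vhl/Rassf1a cells at 12.9, 13.3 and 13.4 CPM with Cre and 82.7, 119 and 80.7 CPM with GFP. The 12 Cre libraries thus held Mkrn2 between 11.7 and 14.1 CPM, and the 12 GFP libraries between 49.3 and 119 CPM. The WT effect minus the Vhl effect was -0.81 ± 0.16 SE, adjusted p = 0.000686, edgeR for Mkrn2 and -1.01 ± 0.21 SE, adjusted p = 0.00115, edgeR for Eml5. Eml5 was at 3.69 to 5.69 CPM in the 12 Cre libraries and at 36.5 to 95.9 CPM in the 12 GFP libraries.

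Those that rose in all 4 genotypes were Drd3, Zc2hc1b and the clone D030018L15Rik, the matrix and protease genes Timp3, Adamts9, Lama2, Fndc1, Egfl6 and Crispld2, the receptors and surface genes Icam1, Flt1, Ecscr and Clca3a1, and Stc1, Pm20d1, Galnt17 and Synpo2. In WT, Crispld2 was lost without WT Cre 3 or WT GFP 1 and Egfl6 without WT Cre 3, WT GFP 1 or WT GFP 3 (adjusted p 0.0557 to 0.116). Stc1, a secreted glycoprotein hormone, was at 22.9, 22.2 and 25.2 CPM in WT Cre, against 16.8, 14.7 and 15.0 CPM in WT GFP (log2 fold change 0.60 ± 0.11 SE, adjusted p = 0.00434, edgeR), and its log2 fold changes in Rassf1a, Vhl and Vhl/Rassf1a were 0.50, 1.58 and 1.65. Pm20d1, a secreted enzyme that makes N-acyl amino acids, was at 6.68, 5.33 and 6.19 CPM in WT Cre, against 3.46, 3.67 and 3.70 CPM in WT GFP (log2 fold change 0.75 ± 0.11 SE, adjusted p = 0.00044, edgeR). Flt1, a VEGF receptor, was at 86.1, 84.8 and 91.5 CPM in WT Cre, against 62.7, 68.7 and 62.7 CPM in WT GFP (log2 fold change 0.44 ± 0.07 SE, adjusted p = 0.00105, edgeR). In these 3 genes no GFP library reached the lowest Cre library. Icam1 rose by 0.38 in Rassf1a, 0.19 in Vhl and 0.53 in Vhl/Rassf1a, and its rise in WT exceeded that in Vhl by 0.43 ± 0.06 SE, adjusted p = 2.68e-05, edgeR. Timp3 rose more in Vhl/Rassf1a than in WT (WT effect minus Vhl/Rassf1a effect -0.82 ± 0.06 SE, adjusted p = 2.99e-09, edgeR).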

How the data were processed

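The members, gene lists and tests were chosen with earlier results of these data known. RNA of mouse embryonic fibroblasts was extracted (NucleoSpin) and made into stranded libraries (TruSeq), per the labels' protocols. The authors deposited a table of raw read counts for 45706 genes in 24 libraries. Reads were trimmed with Trimmomatic 0.38 and aligned with STAR 2.5.2b to GRCm38, per the submitters' processing notes, while the counter, strand mode and gene models were not given in the sources used here. A count summed over a gene does not separate transcript forms, and reads in overlaps between genes may be lost or shared.

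Gene names came from GENCODE M21 for 45143 IDs, and 563 had none. Genes were kept by edgeR's filterByExpr (minimum count 10, minimum total 15), which left 16573. One quasi-likelihood model (edgeR 4.0.16, R 4.3.3) with TMM scaling and 8 group means was fitted to all 24 libraries, which share 1 estimate of spread (16 residual degrees of freedom, biological coefficient of variation 7.73%). Cre minus GFP was tested in each genotype, and the WT effect minus each other effect as an interaction, two-sided, with Benjamini-Hochberg adjustment over all genes and a threshold of 0.05. The SE was derived from that test, as the size of the log2 fold change over the square root of its F statistic. CPM use TMM-scaled library sizes. List sums use unscaled totals.

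Genes were named by this rule: Vhl and Rassf1, the 15 highest and 15 lowest called log2 fold changes with a mean of at least 5 CPM and no overlap, the 10 smallest adjusted p, up to 4 members of each list by smallest p, genes called in all 4 genotypes, and neighbours of the 2 largest changes, without clone names. Genes outside it were chosen after their values were seen. These include Alox5, Zmynd10, 6720427I07Rik, Cdkn1a, Heg1, Gpx3, Insm2, called members of lists beyond 4, and relatives of Eml5 and Mkrn2. Ratios and floors (3 counts over a group) for genes near 0 cover counting error only, with exact 95% intervals. Promoters of RefSeq were matched by symbol. Same-numbered Cre and GFP libraries did not deviate together in every pair, so no block was used. Alternatives were DESeq2 (1.42.0) size factors or Wald test, no filter, a replicate block, GC offsets (a smoothing spline of each library's log2 deviation on GC content, 6 degrees of freedom), only WT libraries, and leaving out libraries. The fits were tested on simulated counts. Tables were handled with Python 3.11.15, pandas 2.3.3 and numpy 2.4.6.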

Additional observations from a re-analysis of the deposited data

Results flagged for a closer look

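Among 52 named genes whose effects were compared between genotypes, 53 differences in 36 genes passed the test (edgeR interaction, adjusted p under 0.05), and the 23 of at least 1 on the log2 scale are given here. All of them use the WT libraries by which the genes were chosen. Values are the WT effect minus the other effect.

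Against Vhl, genes with a larger Cre minus GFP fall in WT were Sucnr1 (-2.44), Spata45 (-1.85) and Eml5 (-1.01), which fell in both genotypes. Genes that fell in WT and were not called in Vhl were Olfr1060-ps1 (-2.72), Bcas1 (-2.44), Kcnk1 (-2.44), Tmem130 (-2.38) and Zan (-2.19). Genes that fell in WT and rose in Vhl were the signal peptide gene Apln (-2.62), the muscle genes Myh1 (-2.20) and Nebl (-1.52) and the vesicle gene Rab3b (-1.45). Genes that rose in WT and fell in Vhl were the matrix genes Mmp3 (1.87) and Mfap4 (1.53), the phosphatase gene Ptprv (1.32) and Pamr1 (1.14).

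Against Vhl/Rassf1a, the differences were -1.92 for Olfr1060-ps1, -1.71 for Kcnk1, -1.65 for Zan, -1.40 for Tmem130 and -1.37 for Bcas1. Apln, which fell in WT and rose in Vhl/Rassf1a, differed by -1.14, and Stc1, which rose in both, by -1.06. The other 30 differences were smaller than 1.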

How the results depend on the processing

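All 209 genes kept their sign in the 13 alternative settings, and 69 (42 higher, 27 lower) stayed called in all of them. The count of WT calls was 212 with DESeq2 size factors, 300 with the DESeq2 Wald test, 307 without a filter (156 higher or 50.8%, 151 lower), 250 with only the WT libraries, 538 with GC offsets, 466 without Rassf1a GFP 1 and Vhl/Rassf1a GFP 2, a pair that stood apart in its link to GC content, and 87 to 187 with 1 library left out. The block gave 189 (125 higher, 64 lower), and same-numbered WT pairs correlated at 0.218, -0.401 and -0.105. The WT minus Rassf1a effect was called for 22 genes without a filter, 2 without that pair and 0 to 1 with 1 left out (0 without WT GFP 2). The WT minus Vhl/Rassf1a effect was called for 4181 genes with GC offsets and 2045 to 2179 with 1 left out, and the WT minus Vhl effect for 3368 to 3536. The uncalled log2 fold changes of Rassf1 (-0.117 to 0.0413 with 1 library left out, positive without WT GFP 3) and Vhl (-0.00349 to 0.0552 with 1 left out, negative without WT GFP 1, and -0.00606 with GC offsets) changed sign. The alternatives for gene lists and for calls shared between genotypes were chosen after seeing the data. WT calls shared with Vhl numbered 226 with GC offsets, 199 without the pair and 40 to 77 with 1 library left out. Those shared with Rassf1a numbered 72 with DESeq2, 79 without a filter, 114 with GC offsets, 68 without the pair and 35 to 46 with 1 left out. Those shared with Vhl/Rassf1a numbered 321, 274 and 54 to 120, and genes called in all 4 numbered 72 with GC offsets and 22 to 31 with 1 left out. The causes were not tested beyond the loss of a library.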

Other observations

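Further called genes, chosen after their values were seen, fell outside the lists. Gpx3, a secreted glutathione peroxidase, was at 88.1, 90.7 and 90.2 CPM in WT Cre, against 66.2, 68.3 and 68.6 CPM in WT GFP (log2 fold change 0.41 ± 0.05 SE, adjusted p = 9.79e-05, edgeR). Heg1, a surface glycoprotein needed for vessel walls, was at 84.8, 90.0 and 88.6 CPM in WT Cre, against 64.7, 67.5 and 69.1 CPM in WT GFP (log2 fold change 0.39 ± 0.05 SE, adjusted p = 9.79e-05, edgeR). Neither gene had overlapping groups. Cd34, a surface sialomucin, rose by 0.47 and the mechanically gated channel Piezo2 by 0.38, while the water channel Aqp1 fell (-0.41) on the log2 scale. Insm2, a zinc finger transcription factor gene, was at 0.143, 0.182 and 0.390 CPM in WT Cre, against 1.04, 0.998 and 2.59 CPM in WT GFP (log2 fold change -2.64 ± 0.43 SE, adjusted p = 0.00171, edgeR). It was called in no other genotype, and its WT effect minus its Vhl effect was -2.93 ± 0.65 SE, adjusted p = 0.00163, edgeR.

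Of the 21 genes called lower in WT and higher in Vhl, 5 were picked after their values were seen. They were the secreted factors Adcyap1 (-0.84 in WT, 0.89 in Vhl), Bdnf (-0.31, 0.99) and Nptx2 (-0.39, 0.32), the membrane-anchored Nrn1 (-0.36, 0.88) and the microtubule regulator Stmn2 (-0.34, 0.52). Bdnf was at 51.3, 48.6 and 50.1 CPM in WT Cre, against 65.0, 56.9 and 64.0 CPM in WT GFP, and the groups did not overlap. Their shared direction follows from that choice and is given as a description.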
